A study of Mus musculus with 120 samples.

Results

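The 5 genes that encode the NF-kB subunits, Nfkb1, Nfkb2, Rel, Rela and Relb, were followed across single mouse group 2 innate lymphoid cells (ILC2) before, during and after the onset of cytokine secretion. They are all 5 of the named subunit genes, matched by Ensembl identifier among 46078 genes with counts. ILC2 are tissue lymphocytes that answer the alarm cytokine IL-33 with IL-5 and IL-13. The 120 cells came from the pooled mesentery of 20 wild-type C57BL/6 mice, were sorted as lineage-negative c-Kit+ Sca-1+ cells, grown for months with IL-2, and then stimulated on an imaging chip with IL-2 and IL-33. Secretion of 1 cytokine, the index, was imaged for each cell: IL-13 for 60 cells and IL-5 for the other 60. Within each index, 5 cells were taken before the stimulus (pre-stimulation), 11 cells each at 30, 60 and 90 min after their own secretion began (transition), 11 that secreted at a late fixed time of stimulation (activated) and 11 that did not secrete at that time (silent). The mice were pooled and no label ties a cell to an animal or a culture, so each of the 12 groups was treated as 1 sample and no test between groups was possible. Many levels and ratios of the 5 genes are therefore given with counting error or with their range on leaving out any 1 cell. Levels of other genes are given without either.

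The NF-kB subunits share a Rel homology domain and act as pairs. In unstimulated cells the pairs are held in the cytoplasm by IkB proteins, and receptors such as that of IL-33 release them through the IkB kinase (IKK) complex. Nfkb1 (p105, processed to p50), Rel (c-Rel) and Rela (p65) form the pairs of the canonical pathway, and Nfkb2 (p100, processed to p52) and Relb those of the non-canonical one. Several of these genes are themselves known targets of NF-kB. The counts measure transcripts only and carry no information on where the proteins are.

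The genes lie on 4 chromosomes of GRCm38: Nfkb1 (ENSMUSG00000028163) at chr3:135584655-135691547 on the minus strand, Nfkb2 (ENSMUSG00000025225) at chr19:46304320-46312385 and Rela (ENSMUSG00000024927) at chr19:5637483-5648130 on the plus strand, Rel (ENSMUSG00000020275) at chr11:23736847-23770970 and Relb (ENSMUSG00000002983) at chr7:19606217-19629438 on the minus strand. Because several members moved together, the RefSeq promoter windows (250 bases before to 50 after a start, build GRCm38.p6) of the 3 members that have one, Nfkb2, Rel and Rela, were searched on both strands for the kB consensus, the decamer that NF-kB pairs bind. Of 32851 windows in the table, 4.51% held it. The single Rel window and each of the 3 Nfkb2 windows held it, and the single Rela window did not. The matches are shown 5′ to 3′ on the gene's strand, with the bases covered by a match in capitals. Matches on opposite strands that overlap by all but 1 base were joined, and the Nfkb2 site at chr19:46305695-46305724 lies in 2 windows.
Rel, chr11:23771042-23771070, match starting 92 bases before the start: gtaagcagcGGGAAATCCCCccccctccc
Nfkb2 first window, chr19:46304689-46304717, match starting 39 bases before the start: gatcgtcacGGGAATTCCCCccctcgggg
Nfkb2 first window, chr19:46304716-46304745, match starting 11 bases before the start: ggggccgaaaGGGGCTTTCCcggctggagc
Nfkb2 second and last windows, chr19:46305695-46305724, match starting 10 bases after the second start and 225 before that of the last window: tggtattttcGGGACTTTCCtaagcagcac
Nfkb2 second window, chr19:46305449-46305478, match on the opposite strand starting 236 bases before the start: tccgacggcaGGAATGTCCCcacaaaagcc
A match describes letters in the window and is no evidence of binding in these cells.

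The cells held 65 to 785198 gene reads each, with a median of 254001. Levels are reads per 1000000 gene reads (CPM), either of 1 cell or of all reads summed over a group. Under 84667 reads, the median divided by 3, lay 6 cells: 1 of IL-5 30 min with 73 reads, 1 of IL-5 60 min with 65, 1 of IL-5 silent with 2152, 1 of IL-5 90 min and 2 of IL-13 90 min. The first 2 had no read of any subunit gene. Of 12 ILC2 markers all were read, among them Gata3 in 116 of 120 cells, Il1rl1 (the IL-33 receptor) in 113 and Ly6a (Sca-1) in all 120, but Icos in 69, Thy1 in 53, Il7r in 46 and Areg in 14, while Cd4, Cd8a, Cd8b1, the 3 B cell markers and the 3 stromal or adipocyte markers had no read in any cell, as had 2 of 4 macrophage markers and 1 of 3 mast cell markers. The cells of an index carry 2 dates in their titles, the earlier for the 5 pre-stimulation cells and for 5 cells of every other state, the later for the remaining 6 of each. What the dates stand for is not stated, and because the indexes share no date, index and date cannot be told apart.

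Over all cells of a group, the 5 genes together were lowest before stimulation and highest 30 min after the onset of secretion, in both indexes. In IL-13 cells their summed level was 111 CPM (95% Poisson interval 90.9 to 134) before stimulation, 2763 CPM (2700 to 2827) at 30 min, 2311 CPM at 60 min and 1984 CPM at 90 min. It was 1011 CPM in activated and 765 CPM in silent cells. In IL-5 cells it was 328 CPM (297 to 362), then 2468 CPM (2416 to 2520), 1849 CPM and 1883 CPM, with 908 CPM in activated and 1337 CPM in silent cells. The 3 transition groups of both indexes were thus above all groups of the other states, and silent cells were below activated cells in the IL-13 index but above them in the IL-5 index. The pre-stimulation levels rested most on single cells, and on leaving out any 1 cell, a range added after seeing the data, they ran from 65.4 (without replicate 1) to 142 CPM in IL-13 and from 162 (without replicate 2) to 432 CPM in IL-5 cells. The 30 min levels ran from 2624 to 3026 CPM and from 2357 to 2606 CPM. Between activated and silent cells the ranges were 822 to 1159 and 694 to 829 CPM in the IL-13 index, which overlap, and 829 to 970 and 1201 to 1440 CPM in the IL-5 index, which do not. The rank of 30 over 60 min in IL-13 cells did not hold on the second title date. There Nfkb1 stood at 871 CPM at 30 min and 1197 CPM at 60 min, and Relb at 216 and 368 CPM. Rel stood at 612 and 334 CPM, Nfkb2 at 312 and 301 CPM and Rela at 94.4 and 0 CPM. Poisson intervals cover counting error alone, and reads without molecular identifiers are not independent molecules.

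**Figure D1:**
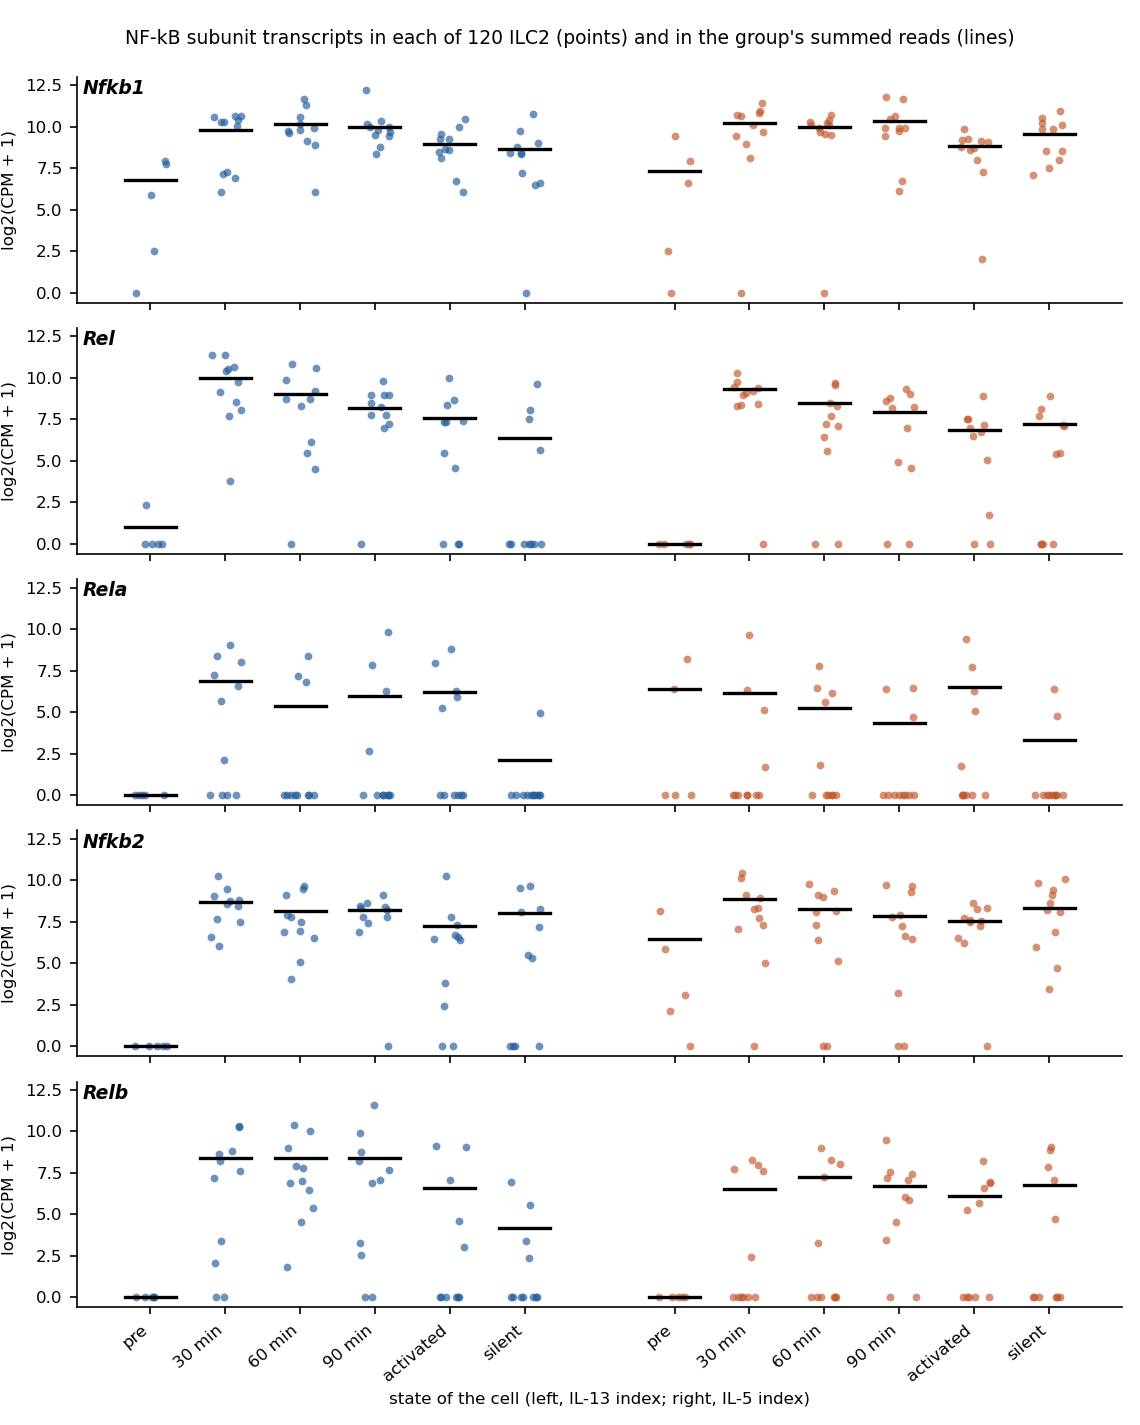
Level of each subunit gene in every cell (points, log2 of CPM + 1) and in the summed reads of its group (lines), for the 6 states of the IL-13 index (left, blue) and the IL-5 index (right, orange). Rel and Relb are at or near 0 in all 10 pre-stimulation cells, Nfkb1 is read in 8 of them, and Rela is at 0 in most cells of most groups.

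Nfkb1 was the subunit gene with a read in the most cells, 115 of 120, and the 1 read before stimulation in both indexes. In the 5 IL-13 pre-stimulation cells it stood at 239.7, 59.2, 219, 0 and 4.63 CPM, the last from 1 read, and in the 5 IL-5 cells at 689.8, 248, 98.2, 0 and 4.67 CPM. Both groups of 5 thus held 1 cell at 0, 1 with a single read and 3 with 10 or more reads. In IL-13 transition cells the lowest, median and highest cells were at 66.0, 1246 and 1630 CPM at 30 min, at 66.5, 877 and 3199 CPM at 60 min and at 321, 902 and 4732 CPM at 90 min. In IL-5 transition cells they were at 0, 1089 and 2794 CPM at 30 min, 0, 1119 and 1668 CPM at 60 min and 69.6, 961 and 3489 CPM at 90 min, both cells at 0 being the near-empty libraries. A typical transition cell was therefore above every pre-stimulation cell, but the groups overlapped. At 30 min the IL-13 cells at 66.0, 119, 140 and 151 CPM were within the range of the pre-stimulation cells of their index. So were the IL-5 cells of usable depth at 275, 499 and 684 CPM.

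Summed over groups, Nfkb1 stood at 109.9 CPM before stimulation and 881 CPM at 30 min in IL-13 cells, 8.02-fold higher (log2 3.00, counting interval 2.72 to 3.30, 2.65 to 3.75 on leaving out any 1 cell). In IL-5 cells it stood at 161 and 1204 CPM, 7.48-fold higher (log2 2.90, interval 2.70 to 3.12, 2.50 to 3.66). It kept this level through the transition, at 1151 and 1009 CPM at 60 and 90 min in IL-13 cells and 998 and 1283 CPM in IL-5 cells. The ratio of 30 to 90 min was small in both, log2 -0.20 and -0.09, and the second changed sign under other scalings, to 0.02 with edgeR's TMM factors and 0.08 with DESeq2's size factors. Activated cells stood at 499.8 and 451 CPM, and silent cells at 397 CPM in the IL-13 index and 755 CPM in the IL-5 index. In the order of levels the 6 transition groups came first. Each of them overlapped its neighbour in the range on leaving out 1 cell, so the order of neighbours is not resolved. The ranges of IL-5 90 min (1123 to 1409 CPM) and IL-5 30 min (1093 to 1344 CPM) lay above those of IL-13 90 min, IL-5 60 min and IL-13 30 min. The IL-5 silent group came after the transition groups, overlapped IL-13 30 min but lay clear of the activated groups, and both pre-stimulation groups lay below all others.

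An unverified gene model on the same strand, Gm43430, lies within the span of Nfkb1 at chr3:135650670-135654566 and is counted on its own. It was named after its values were seen. It held 64.3 CPM in IL-13 pre-stimulation cells, 157 CPM at 30 min, 77.7 CPM at 60 min, 65.4 CPM at 90 min, 33.8 CPM in activated and 31.0 CPM in silent cells. In IL-5 cells the same states held 0, 179, 105, 163, 22.5 and 59.4 CPM, so its groups at 30 min were the highest of each index, which those of Nfkb1 were not.

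Rel, which encodes c-Rel, a subunit with a transactivation domain that is most abundant in lymphocytes, had a lower summed level at 90 than at 30 min in both indexes. Before stimulation it had 1 read in 1 of 5 IL-13 cells and no read in the 5 IL-5 cells. At 30 min it was read in all 11 IL-13 cells, with the lowest, median and highest at 12.8, 848 and 2684 CPM, and in 10 of 11 IL-5 cells, with 0, 544 and 1276 CPM, the cell at 0 being near-empty. In both indexes every 30 min cell of usable depth was above every pre-stimulation cell. The summed level then stepped down with time, from 1024 CPM (interval 986 to 1063) at 30 min through 511 CPM at 60 min to 290.0 CPM at 90 min in IL-13 cells. In IL-5 cells it went from 639 CPM (613 to 665) through 356 CPM to 247 CPM. There replicate 7 held 48.0% of the 60 min reads, and without it the 60 min level was 241 CPM. The step from 60 to 90 min in IL-5 cells thus rested on 1 cell, and the median cell was at 148 CPM at 60 min and 295 CPM at 90 min. Activated cells were lower again, at 190.1 and 113 CPM, and silent cells stood at 83.9 and 148 CPM.

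Against pre-stimulation cells, Rel at 30 min was higher by log2 9.95 in IL-13 cells with a counting interval of 7.47 to 15.3, computed without a floor since 1 read stands against 2741 (8.36 with the floor of 3 reads, as in the plot of ratios), and at least 258-fold higher in IL-5 cells, with 2268 reads against none. Here and below, a fold against a group with no read is computed against 3 reads over that group. Against 90 min, it was 3.53-fold higher in IL-13 cells (log2 1.82, interval 1.68 to 1.96, 1.59 to 1.96 on leaving out a cell) and 2.59-fold higher in IL-5 cells (log2 1.37, interval 1.23 to 1.52, 1.14 to 1.57). Within the first and second title dates this ratio was log2 2.18 and 1.24 in IL-13 cells and 1.08 and 1.59 in IL-5 cells. In the order of the 12 groups the 30 min groups came first, then the 60 min groups, then the 90 min groups. The IL-13 30 min group lay clear of the next on leaving out 1 cell, and from the IL-5 30 min group down to the IL-13 silent group neighbours overlapped. On its first and second dates the IL-13 30 min group stood at 1722 and 612 CPM and the IL-5 30 min group at 549 and 708 CPM. The IL-13 group was thus not the higher on the second dates.

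The silent cells differed between title dates in Rel. All 222 reads of the IL-13 silent group came from 4 of the 5 first-date cells, at 777, 179.7, 48.9 and 266 CPM, and the 6 second-date cells were at 0. The first cell alone held 65.8% of the group's reads. In the IL-5 silent group 7 of 11 cells had a read, and the dates stood at 213 and 75.9 CPM.

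Rela, the p65 subunit and the main transactivating partner of p50, was read in 41 of 120 cells, the fewest of the 5 genes, and in 0 to 7 cells of a group. It had no read in IL-13 pre-stimulation cells, 115 CPM with reads in 7 of 11 cells at 30 min, and 40.2, 62.4, 73.6 and 3.40 CPM at 60 min, at 90 min, in activated and in silent cells. In IL-5 cells, 2 of 5 pre-stimulation cells stood at 82.5 and 287 CPM and gave a level of 81.7 CPM, and the later groups stood at 71.2, 37.8, 19.1, 89.2 and 9.13 CPM in the same order. The 2 silent groups were the lowest after stimulation, with 1 and 2 of 11 cells with a read. Single cells set most of these levels: 1 cell held 88.9% of the reads of the IL-5 pre-stimulation group, 84.2% of IL-5 30 min, 67.3% of IL-5 activated and 62.5% of IL-13 90 min. Without the IL-5 30 min cell the level there went from 71.2 to 12.2 CPM. In the order of levels each of the 12 groups overlapped the next on leaving out 1 cell, so the order of neighbouring Rela levels is not resolved.

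**Figure D2:**
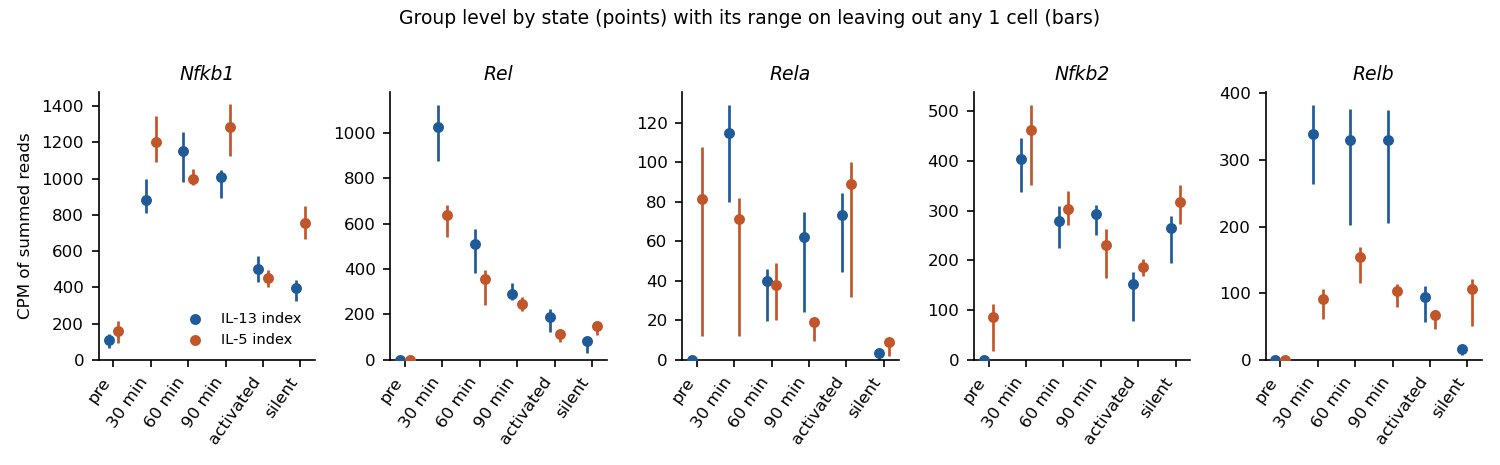
Level of each subunit gene in the summed reads of each group (points, CPM, each panel with its own scale from 0) and its range on leaving out any 1 cell (bars), by state and index. Rel is lower at 90 than at 30 min in both indexes, Nfkb1 stays high through the transition, and the bars of Rela span much of its scale.

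Nfkb2, the precursor of p52, was read in 101 cells, and before stimulation it was read in the IL-5 index alone. All 5 IL-13 pre-stimulation cells were at 0, and the 5 IL-5 cells stood at 7.50, 284, 56.6, 3.41 and 0 CPM, with 83.7% of the group's reads in 1 cell. At 30 min the lowest, median and highest IL-13 cells were at 65.6, 382 and 1240 CPM, so all 11 lay above the 5 cells before stimulation. The 11 IL-5 cells were at 0, 302 and 1368 CPM and overlapped the pre-stimulation cells. The summed level at 30 min was 404 CPM in IL-13 cells and 462 CPM in IL-5 cells, the highest of the 6 states in each. It was 279 and 303 CPM at 60 min, 293 and 232 CPM at 90 min, 152 and 187 CPM in activated cells and 264 and 317 CPM in silent cells.

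Nfkb2 was thus lower in activated than in silent cells in both indexes, by log2 -0.80 (interval -0.97 to -0.63) and -0.76 (interval -0.90 to -0.62), neither of which reached 2-fold. Leaving out 1 cell moved the first between -1.76 and -0.36 and the second between -0.92 and -0.54. Within title dates the direction changed, with log2 1.14 on the first date and -0.92 on the second for IL-13 and 0.17 and -1.49 for IL-5. In IL-13 activated cells 1 cell at 1221 CPM held 52.1% of the reads. In the order of the 12 groups the first 11 overlapped their neighbours, and the IL-13 pre-stimulation group stood apart at 0.

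Relb, whose protein pairs mainly with p52 and p100, had no read in any of the 10 pre-stimulation cells. In IL-13 transition cells the 30, 60 and 90 min groups stood at 339 CPM (interval 317 to 362), 330 CPM (309.5 to 351) and 330 CPM (303 to 358), with the lowest, median and highest cells at 0, 196 and 1279 CPM at 30 min, 2.59, 127 and 1342 CPM at 60 min and 0, 136 and 3097 CPM at 90 min. Within dates the 3 groups were further apart, at 547, 254 and 756 CPM on the first and 216, 368 and 180.0 CPM on the second, and leaving out 1 cell took 60 min to 202 CPM and 90 min to 205 CPM. It was 94.9 CPM in activated and 17.0 CPM in silent cells, with reads in 5 and 4 of 11 cells. In IL-5 transition cells it was lower, at 91.8, 154 and 103 CPM, with reads in 5, 5 and 9 of 11 cells, and it was 67.0 CPM in activated and 107 CPM in silent cells. In the IL-5 30 min group the 5 first-date cells stood between 4.32 and 305 CPM and the 6 second-date cells were all at 0. The 3 IL-13 transition groups overlapped each other on leaving out 1 cell and lay clear of the IL-5 60 min group, which came next. From there down to the IL-5 activated group neighbours overlapped.

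**Figure D3:**
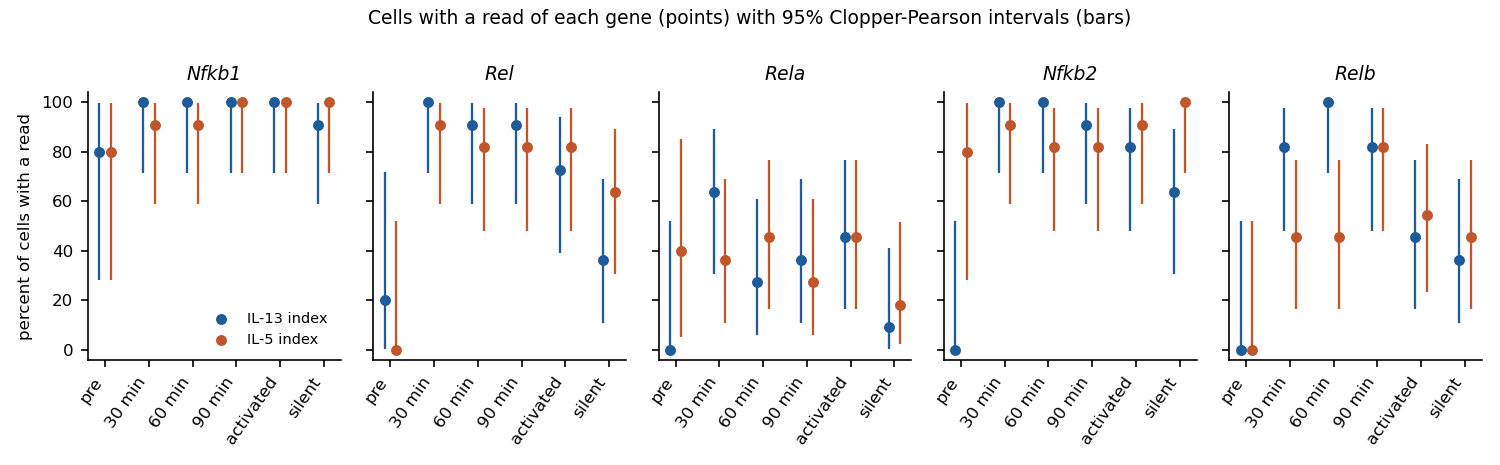
Percent of cells with at least 1 read of each subunit gene in each state (points) with exact 95% Clopper-Pearson intervals (bars), for the IL-13 index (blue) and the IL-5 index (orange). Rel goes from 20% and 0% of pre-stimulation cells to 100% and 90.9% at 30 min and to 36.4% and 63.6% of silent cells.

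Rel was read in 11 and 10 of 11 cells at 30 min (100% and 90.9%), in 10 and 9 at 60 min, 10 and 9 at 90 min, 8 and 9 in activated cells and 4 and 7 in silent cells (36.4%, Clopper-Pearson interval 10.9 to 69.2, and 63.6%, interval 30.8 to 89.1). For 0 of 5 pre-stimulation cells the interval reaches 52.2%, so absence of a gene from these cells is not shown at this number. Of the 600 values of 5 genes in 120 cells, 187 were at 0, 27 rested on 1 or 2 reads and 386 on 3 or more. Libraries were pooled in sets of 5 or 6 before tagmentation, and how far values of 1 or 2 reads came from another library of the pool was not tested. The number of the 5 genes with a read per cell had a median of 1 in IL-13 and 2 in IL-5 pre-stimulation cells, 5 and 4 at 30 min, 4 in each of the other transition groups, 3 and 4 in activated and 2 and 3 in silent cells. When cells were thinned to 100000 reads, which left out 7, the medians were 4 at 30 min in both indexes, and 2 and 3.5 in silent cells. All 5 genes were read together in 6 of 11 IL-13 and 2 of 11 IL-5 cells at 30 min, in 3 and 2 activated cells and in no silent cell.

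Cells of 1 group spread unequally by gene. Over the cells of usable depth at 30 min in the IL-5 index, the SD of log2(CPM + 1) was 0.65 for Rel, 1.03 for Nfkb1, 1.58 for Nfkb2, 3.50 for Rela and 3.94 for Relb (10 cells). In the IL-13 index at 30 min it was 2.20 for Rel, 1.84 for Nfkb1, 1.24 for Nfkb2, 3.83 for Rela and 3.93 for Relb (11 cells). The narrowest Nfkb1 group was IL-5 60 min, at 0.39 over the 10 cells of usable depth, and the widest were the pre-stimulation groups, at 3.47 and 3.93 over 5 cells. Rela and Relb thus spread widely in both 30 min groups, where they were at 0 in part of the cells.

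The first comparison asks how the subunit genes differed between cells at the onset of secretion and cells before the stimulus. In the IL-13 index all 5 were at least 2-fold higher at 30 min, a size reached upward by 25.7% and downward by 30.7% of the 2654 genes whose average in both groups was 50 CPM or more. The subunit genes were counted in every comparison whether or not they reached that average, as 5 did here and 4 in the IL-5 index. Nfkb2 was at least 129.9-fold higher, Relb at least 109-fold and Rela at least 36.9-fold. The cells of Nfkb2 and Rel did not overlap between the groups, as for 0.716% of the genes. In the IL-5 index 4 of 5 were at least 2-fold higher against 26.3% of 2837 genes (30.2% lower): Nfkb1, Rel, Relb at least 37.1-fold and Nfkb2 5.39-fold (log2 2.43, interval 2.14 to 2.73, and 4.62 without pre-stimulation replicate 2). Rela was between, at log2 -0.20 (interval -0.54 to 0.15), -2.75 or 2.55 on leaving out 1 cell, and 0.16 and 0.070 with TMM and DESeq2 factors. No cell of Rel overlapped there once the near-empty cell was left out, as for 0.740% of the genes. A gene with no read before stimulation that passes a minimum on the mean had to differ in this direction. In IL-13 cells 3 of the 5 genes had no read before stimulation, so no median over them is given. In IL-5 cells Rel and Relb had no read before stimulation, so no median is given there either.

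Markers of other cells also differed between these groups. The 6 T cell markers summed to 1128 CPM in IL-13 and 1195 CPM in IL-5 pre-stimulation cells and to 0 to 523 CPM in the 10 later groups, mostly from Cd3g, which was read in 26 cells, while Cd3e was read in 3, Cd3d in 4 and the defining Cd4, Cd8a and Cd8b1 in none. The 3 mast cell markers summed to 301 and 37.1 CPM before stimulation and to 0 to 326 CPM later, and the 12 ILC2 markers to 12163 and 11168 CPM before stimulation and 6276 to 14126 CPM later. The part of these cells' RNA in the results was not tested.

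Activated and silent cells also stood above pre-stimulation cells. In the IL-13 index 5 of 5 genes were at least 2-fold higher in activated cells (26.9% of 2641 genes higher, 33.6% lower) and 4 of 5 in silent cells (28.8% of 2873 higher, 25.3% lower), where Rela, with 9 reads, was not. Only 3 and 2 of the 5 reached the minimum mean in these comparisons, and Nfkb2, Rela and Relb had no read before stimulation. In the IL-5 index 4 of 5 were higher in activated cells (25.6% of 2762 higher, 35.7% lower), with Rela between, and in silent cells 4 were higher and Rela was lower (24.8% of 2825 higher, 31.6% lower). Rela in IL-5 activated cells was at log2 0.13, between -1.35 and 2.88 on leaving out 1 cell. It was at 1.29 on the first date, the only date of the pre-stimulation cells, so its place is not resolved. Nfkb1 was 4.55-fold and 3.61-fold higher in IL-13 activated and silent cells and 2.80-fold and 4.70-fold higher in IL-5 ones. Without replicate 1 of the pre-stimulation cells, the highest in each index, these were log2 2.93 and 2.60 and log2 2.24 and 2.98. Nfkb2 in IL-5 activated cells, at 2.18-fold, was at log2 0.74 without pre-stimulation replicate 4 and at 3.32 without replicate 2, which held most of the reads before stimulation. Rela was 8.94-fold lower in IL-5 silent than in pre-stimulation cells, but log2 -0.41 without the 1 pre-stimulation cell that carried it, in place of -3.16. The silent cells, which did not secrete the index cytokine, thus held more reads of Nfkb1 per gene read than unstimulated cells in both indexes, and of Nfkb2 in IL-5 cells. Rel and Relb in both indexes and Nfkb2 in IL-13 cells had 1 read or none before stimulation. They could hardly come out lower and are not counted here. In IL-13 silent cells 1 cell held 62.2% of the 45 Relb reads. On the first date, that of all pre-stimulation cells, Nfkb2 stood at 32.9 CPM in IL-13 silent cells.

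**Figure D4:**
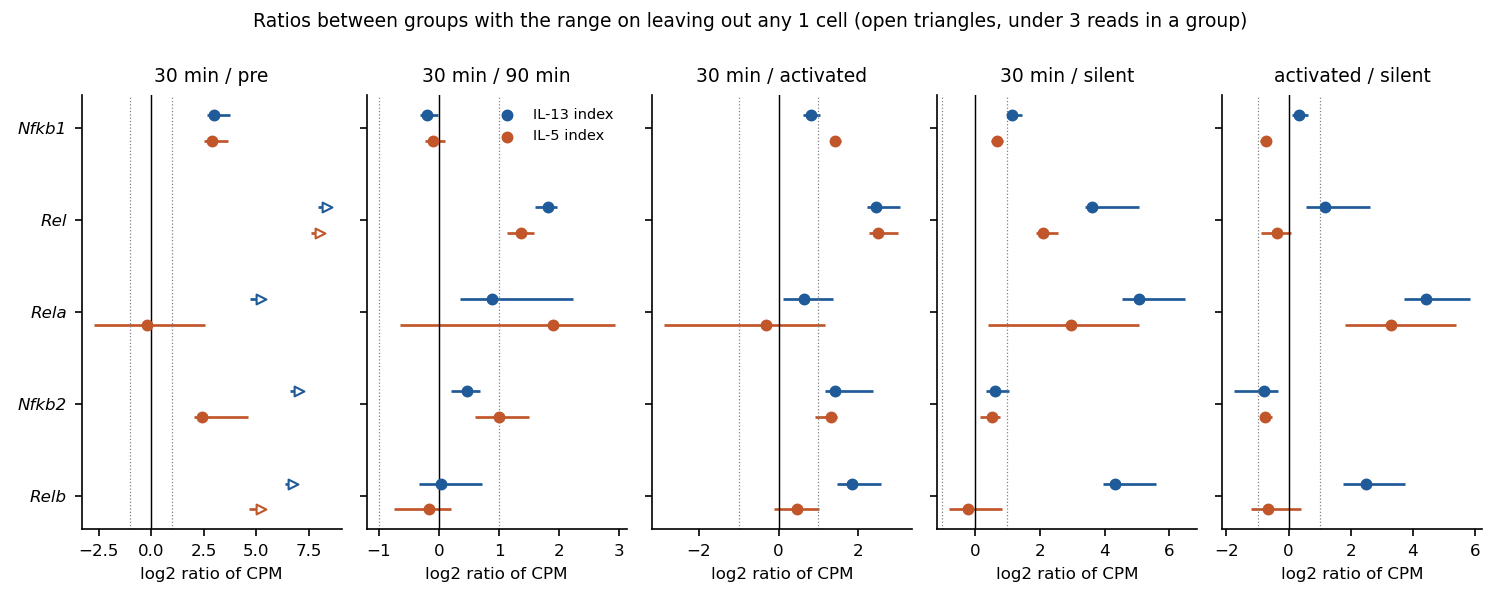
Log2 ratio of CPM between groups for each subunit gene (points) and its range on leaving out any 1 cell (bars), in the IL-13 index (blue) and the IL-5 index (orange). Open triangles mark ratios with under 3 reads in a group, which are computed against a floor of 3 reads, and dotted lines mark 2-fold. Rel lies past 2-fold on the side of the 30 min cells in each panel that sets them against later, activated or silent cells.

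Cells at 30 min were then set against the later states. Against activated cells, 3 of 5 were at least 2-fold higher in IL-13 cells (24.5% of 2536 genes higher, 25.0% lower): Rel 5.39-fold (log2 2.43, interval 2.30 to 2.56), Relb 3.57-fold and Nfkb2 2.66-fold. Without activated replicates 10, 5 and 9 in turn these were at log2 3.04, 2.56 and 2.37. In IL-5 cells 3 of 5 were as well (22.3% of 2593 genes higher, 15.5% lower): Rel 5.63-fold (log2 2.49, interval 2.34 to 2.65), Nfkb1 2.67-fold and Nfkb2 2.47-fold. Nfkb2 fell short of 2-fold there without replicate 7 of 30 min, at log2 0.91, and on the first date, at 0.22, and in IL-13 cells on the second date, at 0.61. Rel kept this direction on both dates of both indexes, at log2 3.44 and 1.54 in IL-13 and 2.28 and 2.64 in IL-5 cells. Nfkb1, at 1.76-fold in IL-13 cells, fell short of 2-fold there. Relb in IL-5 cells was at log2 0.45 but at 1.33 on the first and -5.19 on the second date, where all 6 cells at 30 min were at 0.

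Against silent cells, 4 of 5 were at least 2-fold higher at 30 min in the IL-13 index (19.9% of 2806 genes higher, 28.4% lower): Rela 33.7-fold, Relb 19.9-fold, Rel 12.2-fold and Nfkb1 2.22-fold. Rel would be at log2 5.05 in place of 3.61 without the 1 silent cell that held most of its reads, Rela at 6.49 in place of 5.08 without silent replicate 6 and Relb at 5.59 in place of 4.32 without silent replicate 4. On the first date Nfkb1 was at 0.74. Nfkb2 fell short of 2-fold, at log2 0.61, with 4.09 on the first and -0.31 on the second date, and was past it without silent replicate 6, at 1.05. In the IL-5 index 2 of 5 were higher (19.2% of 2702 genes higher, 16.0% lower), Rela 7.80-fold and Rel 4.31-fold, but Rela was at log2 0.41 in place of 2.96 without replicate 1 of 30 min and at 5.05 without silent replicate 3. Relb was at log2 -0.22 (interval -0.45 to 0.00), between -0.80 and 0.84 on leaving out 1 cell and at 0.84 and -6.00 on the first and second dates, so its direction is not resolved. Nfkb1 and Nfkb2 were at log2 0.67 and 0.54. Against 90 min, only Rel was past 2-fold in the IL-13 index (19.2% of 2615 genes higher, 24.2% lower). In the IL-5 index Rel and Rela were (14.0% of 2791 genes higher, 20.0% lower), and Nfkb2 was at 1.99-fold (log2 1.00, and past 2-fold with TMM factors, 1.11, and with DESeq2's size factors, 1.17). Rela at log2 1.90 in IL-5 cells turned to -0.65 without 1 cell.

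Activated and silent cells, taken at the same time of stimulation, were compared to ask how secreting and non-secreting cells differed. In the IL-13 index 3 of 5 genes were at least 2-fold higher in activated cells (17.5% of 2796 genes higher, 27.4% lower): Rela 21.6-fold (235 against 9 reads), Relb 5.58-fold and Rel 2.27-fold. Rel fell short of 2-fold without activated replicate 10, at log2 0.57, and was at 2.62 without silent replicate 1, and Relb ran from 1.76 without activated replicate 5 to 3.76 without silent replicate 4. In the IL-5 index only Rela was (13.0% of 2563 genes higher, 17.5% lower), at 9.77-fold (333 against 28 reads), and the other 4 were lower in activated cells by less than 2-fold, between log2 -0.76 and -0.39, of which Rel and Relb turned to 0.06 and 0.38 without 1 silent cell each. Rela was in this direction in both dates of both indexes, at log2 2.91 and 4.34 in IL-13 and 3.88 and 0.85 in IL-5 cells, and leaving out 1 cell moved it between 3.71 and 5.85 and between 1.81 and 5.38. Its reads came from 5 of 11 activated cells in each index and from 1 and 2 silent cells. Of the activated reads 1 cell held 43.8% in the IL-13 and 67.3% in the IL-5 index. Rela did not reach the minimum mean of 50 CPM in either index here, so the shares of all genes do not cover it. Rel in the IL-13 index had opposite directions on the 2 dates, log2 -0.61 and 6.93, the second against silent cells at 0.

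**Figure D5:**
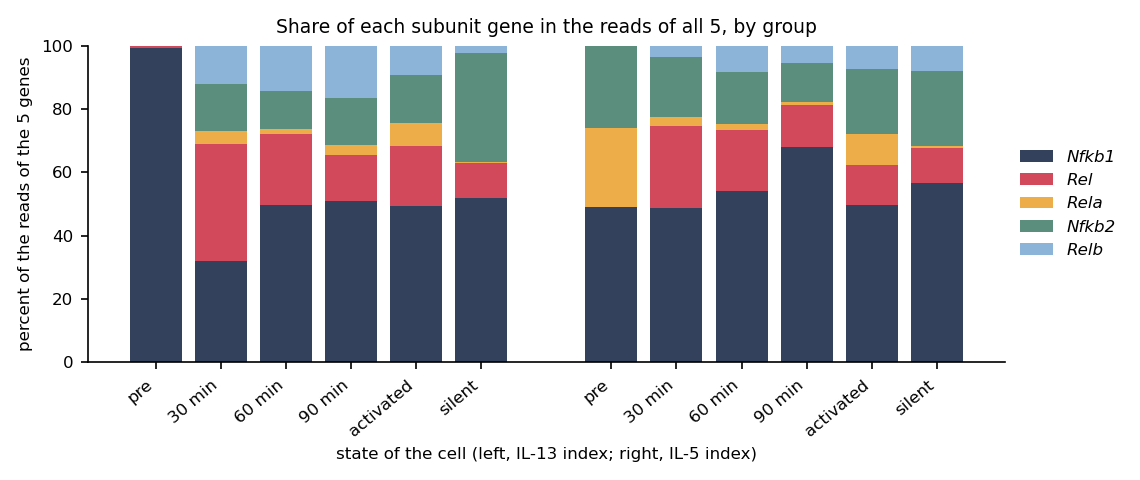
Share of each subunit gene in the summed reads of all 5 (stacked bars, percent), by state for the IL-13 index (left) and the IL-5 index (right). The Rel share is widest at 30 min in both indexes, at 37.1% and 25.9%, and the Nfkb1 share is 99.1% of the 107 reads of IL-13 pre-stimulation cells.

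The make-up of the subunit reads shifted with state. Rel took 37.1% of the reads of the 5 genes at 30 min in IL-13 cells (Clopper-Pearson interval 36.0 to 38.2, 32.5 to 41.5 on leaving out a cell), 22.1% at 60 min and 14.6% at 90 min. In IL-5 cells it took 25.9% (interval 25.0 to 26.8, 21.0 to 27.9 on leaving out a cell), 19.3% and 13.1%. Nfkb1 took 31.9%, 49.8% and 50.9% at the same times in IL-13 cells and 48.8%, 54.0% and 68.1% in IL-5 cells, so its share was larger at 90 than at 30 min in both. The share of Nfkb2 was 34.5% in IL-13 silent cells and 15.1% in activated cells, and 23.7% and 20.6% in the IL-5 index. On leaving out a cell the IL-13 shares ran from 26.3 to 39.0% and from 8.26 to 19.9%, and the IL-5 shares from 22.1 to 27.5% and from 18.6 to 22.2%, which overlap. By title date the Nfkb2 level changed direction. IL-13 silent and activated cells stood at 32.9 and 72.3 CPM on the first date and at 386 and 204 CPM on the second. IL-5 ones stood at 201 and 226 CPM and at 447 and 159 CPM, so the larger share in silent cells is not resolved. Reads were counted at transcript ends and not per length, so these shares follow a gene from group to group and do not rank the genes.

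Between the indexes, Relb was the gene that differed most often. It was 3.69-fold, 2.14-fold and 3.21-fold higher in IL-13 than in IL-5 cells at 30, 60 and 90 min, and 6.29-fold higher in IL-5 than in IL-13 silent cells. Single cells set part of this: without IL-13 replicate 8 the 60 min ratio was log2 -0.39 in place of -1.10, without IL-13 replicate 4 the 90 min ratio was -0.997 in place of -1.68, just short of 2-fold, and the silent ratio ran from 1.59 without IL-5 replicate 2 to 3.93 without IL-13 replicate 4. At 30 and at 60 min it was the 1 subunit gene past 2-fold, among 16.4% of 2612 and 15.3% of 2569 genes that were lower in IL-5 cells (21.0% and 18.1% higher). At 90 min 2 genes were past it, with Rela at 3.26-fold, among 16.2% of 2814 genes lower (22.5% higher), but Rela was at log2 -0.35 in place of -1.71 without IL-13 replicate 4. No subunit gene passed in activated cells, where 10.0% of 2408 genes were higher and 10.8% lower in IL-5 cells. In silent cells Relb and Rela were higher in the IL-5 index, among 17.2% of 2912 genes (23.4% lower), and before stimulation Nfkb2 and Rela were, by at least 27.6-fold and 26.3-fold, among 30.6% of 2844 genes (26.3% lower). Without IL-5 pre-stimulation replicate 2 those were at log2 2.59 in place of 4.79 and 1.97 in place of 4.71, and Rela in silent cells was at -0.66 in place of 1.43 without IL-5 replicate 3. The members called, 0 to 2 of 5, are too few to compare with the shares of all genes. Those shares also do not cover Nfkb2 and Rela before stimulation or Rela at 90 min and in silent cells, which fell short of the minimum mean. Within dates, Relb was lower in IL-5 cells by log2 -1.38 and -7.17 at 30 min, was at 0.074 and -2.56 at 60 min and at -2.88 and -0.81 at 90 min, each set against the date of the same order in the other index.

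The genes that feed and restrain the pathway were counted by lists, beside 25.7% of all genes in IL-13 and 26.3% in IL-5 cells that were at least 2-fold higher at 30 min than before stimulation. A gene with few or no reads before stimulation reached the minimum mean through the 30 min cells and could only come out higher, so the counts are descriptions. Of the 6 IkB family genes, which hold the subunits back or, for Nfkbiz, Bcl3 and Nfkbid, act in the nucleus, 5 had a mean of at least 50 CPM at 30 min and before stimulation in each index. At least 2-fold higher at 30 min were 4 of these in IL-13 cells and 5 in IL-5 cells. Of those called, Nfkbib and Bcl3 had no read before stimulation in either index, nor had Nfkbid in IL-5 cells, so no median is given. Nfkbia (IkBα) stood at 148 CPM before stimulation and 2994 CPM at 30 min in IL-13 cells and at 201 and 2186 CPM in IL-5 cells. Nfkbiz had 1 read against 2023 reads, 756 CPM, at 30 min in IL-13 cells, and stood at 84.1 and 427 CPM in IL-5 cells. Bcl3 had no read before stimulation and stood at 211 and 166 CPM at 30 min. In activated cells 3 of 5 such genes were at least 2-fold below 30 min in IL-13 cells and 5 of 6 in IL-5 cells, beside 24.5% and 22.3% of all genes, with Nfkbia at 1246 and 1055 CPM.

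Of 6 negative regulators other than IkB, 3 in IL-13 and 2 in IL-5 cells had the minimum mean, and these had no read before stimulation, so that no direction other than higher at 30 min was possible. Tnfaip3 (A20, a ubiquitin editor) had no read before stimulation, 187 and 171 CPM at 30 min and 13.8 and 40.7 CPM in activated cells. Otulin, which cleaves linear ubiquitin chains, had no read before and 150.2 and 142 CPM at 30 min. Of the 5 TRAF and cIAP genes, 2 of 2 with the minimum mean were higher in IL-13 cells and 3 of 4 in IL-5 cells, where Traf2 was lower, at 94.9 against 200.5 CPM, and both genes of the IL-13 count reached that mean through the 30 min cells. Traf1, an adaptor, went from no read to 711 CPM and from 106 to 716 CPM, and Birc3 (cIAP2) from 10.4 to 275 CPM and from 53.6 to 136 CPM.

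Among upstream genes, Il1rl1, the IL-33 receptor, was within 2-fold between 30 min and pre-stimulation cells, at 1308 against 863 CPM in the IL-13 and 1586 against 1524 CPM in the IL-5 index. Of the 7 receptor and adaptor genes 4 had the minimum mean in each index, and 1 was higher and 1 lower in each. Irak2, a kinase below the receptor, was higher at 30 min in IL-13 cells (90.4 against 15.6 CPM) and lower in IL-5 cells (1.41 against 126 CPM). Irak4, another of these kinases, was lower in IL-13 cells (4.11 against 102 CPM), and Myd88, the receptor's adaptor, was higher in IL-5 cells (123 against 12.4 CPM). Of 9 genes of the IKK complex and its activating kinases, 2 and 3 had the minimum mean and 1 and 2 of these were higher, Tab2 in both (111 against 24.9 CPM, and 115 CPM against 2 reads) and Map3k8 in IL-5 cells (178 against 48.7 CPM).

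Of 8 known NF-kB targets, 6 in IL-13 and 4 in IL-5 cells had the minimum mean, and these 6 and 4 were at least 2-fold higher at 30 min than before stimulation, but Bcl2l1 and Cd83 in IL-13 and Icam1 and Tnf in IL-5 cells had no read before and could not have come out lower. Csf2, which encodes the cytokine GM-CSF, went from 1 read to 2051 CPM and from 28.0 to 7081 CPM, and Icam1, an adhesion molecule, from 15.6 to 180.4 CPM and from 0 to 108 CPM. Later states did not share 1 direction for the targets. Csf2 was higher in activated than in 30 min cells, at 13159 and 12102 CPM, 2-fold or more only in the IL-13 index, and Cd83 was too in the IL-5 index (185 against 16.0 CPM). Icam1 was lower in activated cells, at 10.6 and 50.1 CPM. Between activated and silent cells, 3 of the 5 targets with the minimum mean in the IL-13 index were at least 2-fold higher on the activated side and 1 was lower (17.5% and 27.4% of all genes), and 2 of 7 were higher and 3 lower in the IL-5 index (13.0% and 17.5%). In the IL-13 index Cd83 had no read in silent cells and could only come out higher, so no median is given. The IL-5 median log2 ratio was -0.77, against -0.07 over all genes. The lower ones were Icam1 in both indexes (10.6 against 109.9 CPM, and 50.1 against 172 CPM) and, in the IL-5 index, Tnf, a cytokine (13.1 against 91.0 CPM), and Irf1, a transcription factor (23.8 against 89.4 CPM). Cd83, a surface protein, was higher in both, with 231 CPM against no read and 185 against 28.1 CPM. Csf2 stood at 13159 against 873 CPM in the IL-13 and 12102 against 7826 CPM in the IL-5 index, and Il2ra, the IL-2 receptor α chain, at 1226 against 339 CPM and 2566 against 801 CPM.

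The genes with the most similar pattern over the 12 groups were sought by Pearson's r of log2(CPM + 1), among 1831 genes that averaged 50 CPM or more and had 3 or more reads in every group. For Rel they were Nfkbia (0.974), Cd44 (0.974) and Nfkb1 (0.928), for Relb Nfkbia (0.963), Pfdn4 (0.950) and Cd44 (0.930), and for Nfkb1 Rora (0.958), Nfkbia (0.942) and Msmo1 (0.907). For Nfkb2 they were Gnb1 (0.958), Mrfap1 (0.945) and Xrn2 (0.930), and for Rela they included Kpna4 (0.867) and Abcf1 (0.862). Nfkbia therefore led or came second for 3 of the 5 genes. Among the 10 pairs of subunit genes r ran from 0.44 (Rel and Rela) to 0.96 (Rel and Relb) over the 12 groups, and from 0.02 (Nfkb2 and Rela) to 0.75 (Rel and Relb) over the 10 stimulated groups. Without the pre-stimulation groups r was lower for 8 of the 10 pairs and higher for Rel and Rela (0.60) and for Rela and Relb (0.51 to 0.62). Each point is the summed reads of 1 group, the values of a group share its libraries and depth, and the correlations are descriptions.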

How the data were processed

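Each of the 120 libraries was made from 1 picked cell with a SMART-Seq v4 kit that reads transcript 3' ends, and libraries were pooled in sets of 5 or 6 before tagmentation. The authors aligned reads with TopHat and counted them per Ensembl gene with HTSeq, and deposited raw counts per cell. Their processing notes name TopHat2 and list the builds mm10 and GRCh38, while the methods give GRCm38 for mouse. The strand setting and annotation release are not given in the sources used here. Reads assigned to genes made up 62.0% of all reads in the tables, and the 5 HTSeq summary rows were left out, of which reads with more than 1 alignment held 28.7%, no feature 7.42% and ambiguous features 1.86%.

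Identifiers were matched to symbols from GENCODE (45143 of 46078). The reads of all cells in a group were added up and expressed as CPM. Ratios are log2 ratios of CPM with a floor of 3 reads over a group (left off for the Rel ratio with 1 read, where said), called at 2-fold, over genes with a mean of at least 50 CPM. Poisson and Clopper-Pearson intervals are 95%. All cells were kept, including the 6 shallow ones, no doublet caller was run, and no 2 files were identical. The members and lists were chosen with earlier results of these data known. Named genes beyond the members are list members and, per subunit gene, the 3 of highest Pearson's r over the 12 groups, of which 1 is not reported here. The ratio and its interval were tested on simulated data. The alternatives were TMM (edgeR 4.0.16) and DESeq2 1.42.0 size factors, the mean of the cells' own CPM, each title date, leaving out shallow cells or any 1 cell, another fold, filter or pseudocount, and thinning. Python 3.11.15 and R 4.3.3 were used.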

Additional observations from a re-analysis of the deposited data

Results flagged for a closer look

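Among the 5 pre-stimulation cells of the IL-13 index, 1 stood apart from the other 4 in Rel, with a gap to its nearest neighbour of 1 of the whole range of log2(CPM + 1). That cell held 1 read (4.06 CPM) and the others none, so the gap is the whole range by construction. Groups of 4 to 10 cells were looked at in this way for each gene with a range, 5 in all, and the rate of about 1 in 20 that chance gives does not apply to values tied at 0.

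Some ratios had opposite directions in the 2 indexes, and the difference between the indexes was not tested. Rela at 30 min against activated cells was at log2 0.64 in the IL-13 and -0.32 in the IL-5 index. Between activated and silent cells, Nfkb1 was at 0.33 and -0.74, Rel at 1.18 and -0.39 and Relb at 2.48 and -0.68, IL-13 first. On leaving out any 1 cell, Rela lay between 0.12 and 1.36 in IL-13 and between -2.87 and 1.15 in IL-5 cells, and by date it was at 2.60 and -0.16 in IL-13 and at -0.54 and 1.39 in IL-5 cells, so neither direction held on both dates. Leaving out any 1 cell kept the direction of Nfkb1 in both indexes (0.11 to 0.63 and -0.91 to -0.56), while in the IL-5 index Rel ran from -0.89 to 0.06 and Relb from -1.22 to 0.38.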

How the results depend on the processing

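Counts of subunit genes past 2-fold changed by over 1.5 times in several comparisons, among them each one between the indexes after stimulation. At 1.5-fold, 5 in place of 3 genes were called for 30 min against activated and 2 in place of 1 for 30 against 90 min in IL-13 cells, 4 (1 higher and 3 lower in activated cells) in place of 1 higher for activated against silent IL-5 cells, and between the indexes 3 in place of 1 at 30 min, 1 in place of 0 in activated and 4 in place of 2 in silent cells. The second title date alone gave 2 for 30 against 90 min (IL-13), 5 for 30 min against activated (4 higher and 1 lower at 30 min, IL-5) and 2 for activated against silent (both lower in activated IL-5 cells, with the 1 higher call, Rela, lost), and between the indexes 2 at 30 min, 2 at 60 min (1 in each direction), 0 at 90 min and 1 in activated cells (lower in IL-5). The first date alone gave between the indexes 3 at 30 min, 2 at 60 min and 2 in activated cells (both higher in IL-5). The mean of the cells' own CPM gave 2 for activated against silent (1 in each direction, IL-5) and 2 between the indexes at 60 min, and leaving out shallow cells gave 2 for 30 against 90 min (IL-13) and 1 between the indexes at 90 min. The cause was not tested. Leaving out 1 cell gave 3 to 5 for 30 min against activated and 1 to 2 for 30 against 90 min in IL-13 cells, 1 to 2 for 30 min against silent and for activated against silent in IL-5 cells (the added call, Relb, lower in activated cells), and between the indexes 1 to 2 at 30 min, 0 to 2 at 60 and at 90 min, 0 to 1 in activated and 1 to 3 in silent cells. Among ratios past 2-fold, directions turned for Rel in activated against silent IL-13 cells on the first date (-0.61), Relb between the indexes at 60 min on the first date (0.074), Rela for 30 against 90 min in IL-5 cells on the second date (-0.38) and without 1 cell (-0.65 to 2.92), and Rela between the indexes on the second date at 90 min (0.72) and in silent cells (-0.33, and -0.66 to 2.84 without 1 cell). TMM factors moved all log2 ratios of a comparison together by -0.27 to 0.47 and DESeq2's by -0.26 to 0.34, over 0.1 in 13 and 12 of 20 comparisons, and neither moved a count by over 1.5 times. With at least 5 reads in place of 1, 63.5% in place of 68.8% of the cell values counted as read. Weighting cells equally and a pseudocount of 10 were applied to the levels and the SDs, since they cannot change that share. Of the 15 most similar genes, all 15 stayed with a mean of at least 10 CPM, 10 with a mean of at least 200 CPM and 10 with a pseudocount of 10. The number of cells, 5 before stimulation and 11 later, limits the values beside counting error. No paired analysis was possible because the replicate numbers only follow the order of the samples and no test between groups was run.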
